A study of Mus musculus with 17 samples.

Results

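In a de novo transcript assembly of mouse male germ cells, 1424 pairs of genes overlapped tail to tail. Such convergent pairs were taken from the assembled exons: a plus-strand and a minus-strand gene on 1 chromosome shared at least 1 bp of exon, and the plus gene both started and ended to the left of the minus gene. The 1424 pairs held 2848 of the 27289 assembled genes (10.4%), and no gene belonged to more than 1 such pair. They were a subset of 6153 pairs of opposite-strand genes with exon overlap, of which 3048 overlapped head to head and 1681 had one gene within the span of the other.

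RNA was sequenced from cells sorted by flow cytometry from testes of C57BL/6JRj males that the labels give as WT and 3 months old. After staining with Hoechst 33342 and SYTO 16, 5 populations were collected, each as 3 libraries. LZ are spermatocytes in leptotene or zygotene, and PD those in pachytene or diplotene of meiosis. RS are round spermatids, and elongating spermatids were split into an early (EES) and a late (LES) population. A further 2 populations, stained with Hoechst 33342 alone, gave a single library each: round spermatids titled as juvenile, 23 dpp (RS23), and elongating spermatids titled as sorted by Prm1-EGFP (PrmES). The labels give these the same strain, age and genotype as the others, which differs from their titles, so the titles were followed. The sources do not say that replicates came from separate animals, and p-values measure only the spread between these libraries.

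Genes that face each other tail to tail each end transcription on the side of the other gene. The end of a messenger RNA is made by cutting the transcript downstream of a polyadenylation signal, most often the hexamer AATAAA or its variant ATTAAA, and a choice among several signals sets how long the 3' untranslated region (3' UTR) becomes. If a transcript runs past the end of its neighbour, the transcripts are complementary over the shared stretch. Male germ cells are known for changes in the choice of 3' ends during meiosis and spermiogenesis, and for the slow shutdown of transcription as spermatid chromatin is compacted.

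A short overlap whose bases could be read on both strands from reference transcripts was that of Llgl1, a cell polarity gene, and Flii, which encodes an actin-remodelling protein. Their exons overlapped by 30 bp at chr11:60714139-60714168 (GRCm38), and each strand held a polyadenylation hexamer within those bases. The next sequences show 30 bases at or near the end of each gene, read 5' to 3' on the gene's own strand from GENCODE M21 transcripts, with the hexamer nearest the end in capitals. Each was taken from a reference transcript of either strand that covers the window. Snn, Txndc11 and Igsf8 are shown because they belong to pairs named for opposite moves or for a change of the higher gene, and D630003M21Rik because its hexamer lay at a 21-bp overlap. The assembled end of D630003M21Rik lay far inside its reference gene, at -13226 bp from the reference end, so its hexamer is not at the annotated end.
Llgl1 tail, plus strand, chr11:60714139-60714168: ctgattttttaatattgaaAATAAAagcat
Flii tail, minus strand, chr11:60714139-60714168: atgcttttattttcaatATTAAAaaatcag
Snn tail, plus strand, chr16:11074940-11074969: ttatttacaataaatttcAATAAAatttgc
Txndc11, minus strand, chr16:11074927-11074956: aaatttattgtaAATAAAgatctttctcag
D630003M21Rik tail, minus strand, chr2:158195759-158195788: ggaattagaatccagactcAATAAAaggag
Igsf8 tail, plus strand, chr1:172319806-172319835: ttctaaaatgtgAATAAActggttttgtaa
In Llgl1 the hexamer ended 5 bases before the end of the assembled gene, and in Flii 7 bases before it. The assembled ends also fell short of the reference ends here, at -18 bp for Llgl1, -16 for Flii and -16 for Snn. In the reference the exons of Llgl1 and Flii overlapped by 64 bp. The windows of Txndc11 and Igsf8 stopped short of the gene's end, which lay 25 and 17 bases past the hexamer.

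The hexamers AATAAA and ATTAAA were searched on the gene's strand in the last 50 bases of all assembled genes whose end lay within a reference transcript of either strand. Only 1113 of the 2848 convergent genes (39.1%) had such a sequence, so the search covers that fraction only. AATAAA stood in 21% and ATTAAA in 9.07% of them, and at least one of these in 28.6%. Among the 5288 other assembled genes with a sequence the shares were 29.2%, 9.06% and 36.7%. TTTATT, the same hexamer read on the opposite strand, stood in 6.65% of convergent tails and in 5.33% of the other tails.

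Levels are given in RPKM, that is reads for each kilobase of a gene's exons, scaled to a library of 1 M (mega) reads. Library totals recovered from the values ran from 90.6 to 137.8 M reads over the 15 libraries of the 5 stages. RS23 had 159.2 M and PrmES 149.2 M. Stage markers followed the labels in most libraries, with exceptions in LZ and EES. Dmc1, a recombinase of early meiosis, was at 31.2 to 50.1 RPKM in LZ and at most 0.0905 in PD. Tnp1, a spermatid nuclear protein, was at 3377 to 8419 RPKM in EES and 6204 to 7855 in LES. In LZ it was at 50.8, 61.2 and 72.9 RPKM, above the 4.6 to 17 in PD. The 7 tested markers of elongating spermatids summed to 219 to 359 RPKM in LZ and 29.9 to 81.8 in PD, and all 7 fell. Their part in LZ levels and in falls from LZ to PD was not tested. A pair of libraries stood apart: Piwil1, a pachytene marker, was at 31.5 RPKM in LZ replicate 3 against 3.19 and 4.82 in the other LZ libraries, and Acrv1, an acrosomal protein of round spermatids, was at 105 RPKM in EES replicate 2 against 3.53 and 9.25.

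The overlap itself limits what the levels show. Assembled genes whose exons lay wholly inside the exons of an opposite-strand gene allowed a check of how reads were assigned: such an inner gene can hold more reads than the outer gene only if strands were told apart. Over 377 such pairs and 6409 values the inner gene never held more reads than the outer one, and all 377 inner genes had reads. Where the inner gene lay within the span of the outer one but shared no exon base with it, the inner gene held more in 2832 of 22202 values (12.8%). Reads in an overlap were thus counted for both genes. Counts and correlations of pairs are therefore split by the share of the shorter gene that was overlapped, and the difference in reads between the genes of a pair, in which the shared reads cancel, was used to find which gene was ahead. That difference, divided by the exon length outside the overlap, is the lowest level outside the overlap that the leading gene can have had. It is a bound for this overlap alone: 1652 of the 2848 genes (58%) overlapped no further opposite-strand gene.

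**Figure D1:**
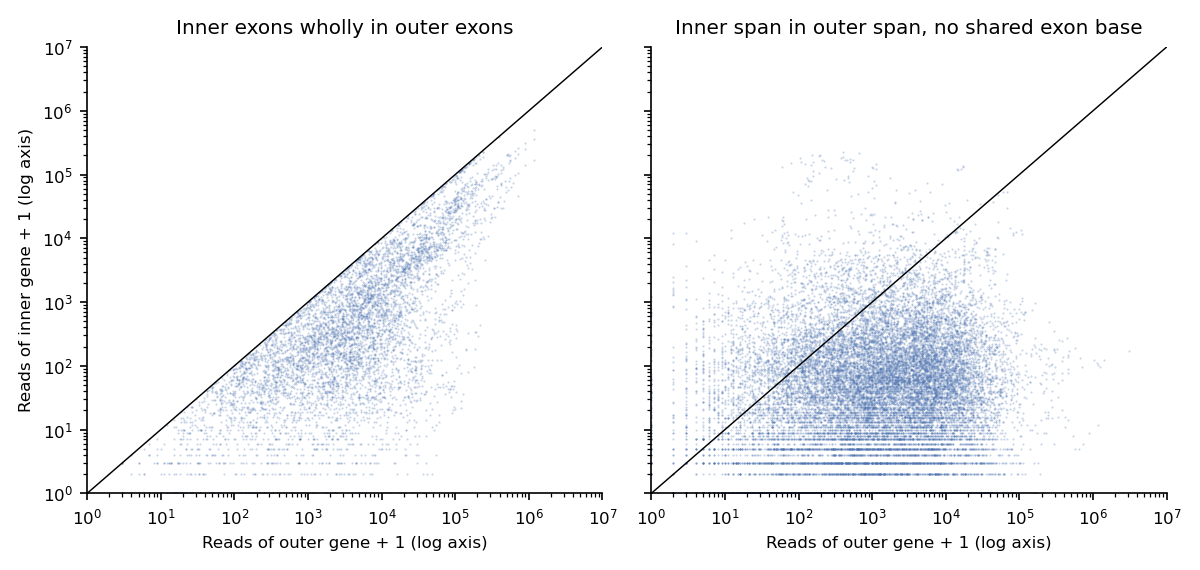
Reads of the inner gene against reads of the outer gene of opposite-strand pairs, 1 point per pair and library in 17 libraries, log axes with 1 read added. The line marks equal reads: no point lies above it where inner exons lie wholly in outer exons (left, 377 pairs), and 2832 do where no exon base is shared (right, 1306 pairs).

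Overlaps were long for most pairs. The shared exon length ran from 1 bp (Adar and Chrnb2) to 13397 bp (B230354K17Rik and Spats1), with a median of 887 bp and quartiles of 321 and 1993 bp. As a share of the shorter gene the median was 33.6%, with quartiles of 15.8% and 55.6%. The share was under 5% in 91 pairs, 5 to 20% in 357, 20 to 50% in 541 and at least 50% in 435. Near the edge of the rule, 98 pairs overlapped by 100 bp or less, and 60 tail-to-tail neighbours without overlap were separated by less than 100 bp, the closest by 4 bp.

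The genes were mostly protein-coding. A protein-coding reference gene stood on the strand of 78.5% of the convergent genes, against 44% of the other assembled genes, and 12.8% had no reference gene on their strand, against 38.1%. In 878 pairs (61.7%) both genes were protein-coding, in 273 a coding gene met a gene with no reference, and in 189 it met a lncRNA or a TEC locus (one still to be experimentally tested). Convergent genes had a median exon length of 4649 bp against 2002 bp for the others, and a median highest stage mean of 9.64 against 3.09 RPKM. Both genes were spliced in 88.8% of pairs.

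Much of the overlap lay outside the reference annotation. Of all overlapped bases, counted on each gene's own strand, 45.7% were outside any GENCODE M21 transcript, 28% in a 3' UTR, 14.4% in coding sequence and 7.99% in an intron, and 0.313% in a 5' UTR. Among the 1096 pairs with a reference gene on both strands, the reference exons already overlapped in 533 (48.6%), by a median of 384 bp against 1101 bp in the assembly. The assembled gene ran past the last reference base in 79.1% of the 2484 genes with a reference, and by more than 1000 bp in 1120. The median extension was 710 bp.

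Chromosomes differed in the share of genes in convergent pairs. It was highest on chromosome 11 (136 pairs, 14.4% of genes) and chromosome 2 (141 pairs, 14%) and lowest among autosomes on chromosome 18 (25 pairs, 6.61%). The X chromosome had 7 pairs among 852 genes (1.64%), and the Y chromosome none among 160.

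**Figure D2:**
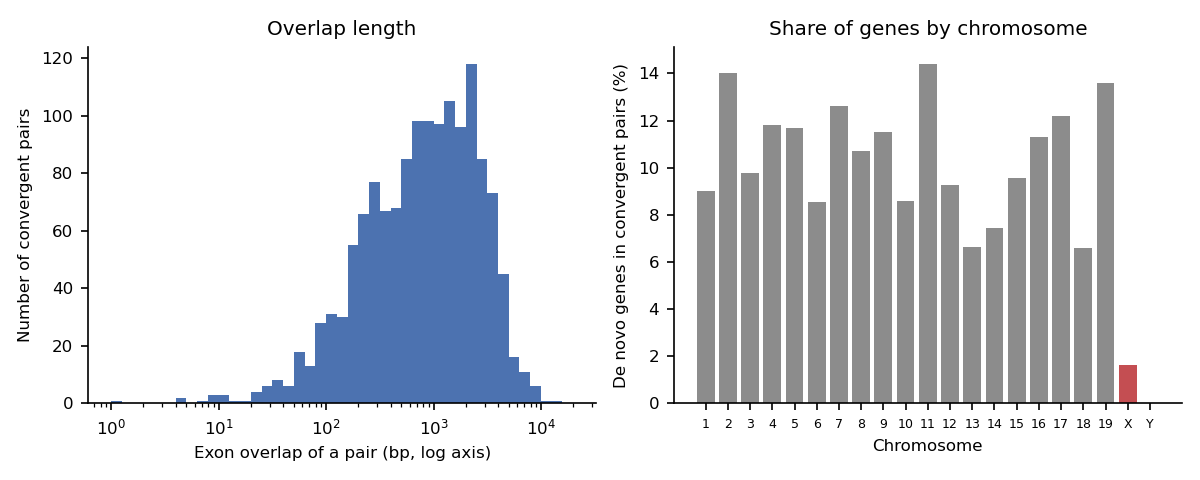
Left: number of convergent pairs by shared exon length (bp, log axis), 1424 pairs with a median of 887 bp. Right: share of assembled genes in convergent pairs by chromosome (%), with the sex chromosomes in red; X stands at 1.64% and Y at 0, and the autosomes between 6.61 and 14.4%.

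Levels of the genes of a pair rose and fell together more where more of the shorter gene was overlapped. Over the 15 libraries, the median Pearson correlation of the log2 levels was 0.81 in the 1340 pairs with both genes tested. It was 0.28 for overlap shares under 5% (79 pairs), 0.60 for 5 to 20% (327 pairs), 0.83 for 20 to 50% (517 pairs) and 0.91 for 50% and over (417 pairs). Tail-to-tail neighbours within 1000 bp that shared no exon base had a median of 0.37 (290 pairs). In head-to-head pairs the median was 0.68 for shares under 5% and 0.83 over all 2630 pairs. These are descriptions: the points share libraries and depth, and reads in an overlap enter both values. Centring each library on its median gave 0.17 for shares under 5% and 0.89 for 50% and over. In the 440 pairs without any further opposite-strand overlap the median was 0.83. It was 0.58 in the 25 of them with shares under 5%, 0.52 in the 94 at 5 to 20%, 0.84 at 20 to 50% and 0.93 at 50% and over.

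**Figure D3:**
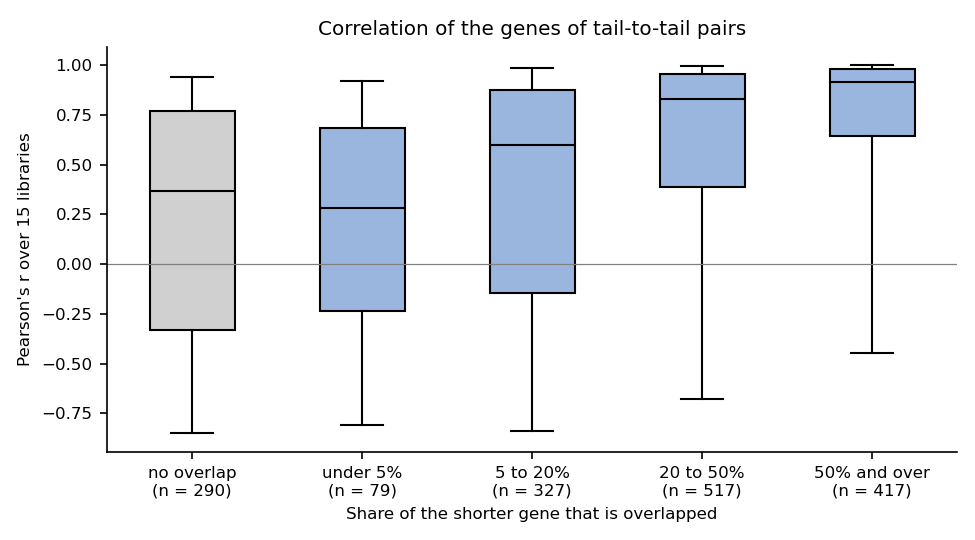
Pearson's r over 15 libraries of the log2 levels of the genes of tail-to-tail pairs, by share of the shorter gene overlapped. Boxes give quartiles and median and whiskers the 5th and 95th percentiles. The medians run from 0.28 to 0.91 in overlapping pairs and stand at 0.37 in neighbours without overlap (grey).

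Of the 2848 convergent genes, 2759 (96.9%) passed the filter for testing (1 RPKM or more in 3 of the 15 libraries), against 78.8% of all assembled genes. Among genes named below, Dicer1, Adar, Igsf8, Inpp5f, Mcmbp, Llgl1, MSTRG.2950, MSTRG.2951 and MSTRG.23570 reached 1 RPKM in LZ libraries only. The direction of their change from LZ to PD was thus set by how they passed the filter, and its p-value is no separate support. Changes were tested with limma across all 21515 tested genes, with Benjamini-Hochberg adjustment, and called at an adjusted p under 0.05 and a log2 fold change of at least 1 in size. Among the 5 stages 2623 convergent genes differed (95.1%), where 97.2% of all tested genes did. The highest stage mean was in LZ for 957 convergent genes (34.7%), PD for 702, RS for 618, EES for 158 and LES for 324. Over all tested genes LZ held 29.2% of the highest means, EES 10.8% and LES 16.9%. Both genes had the same highest stage in 653 of 1340 pairs (48.7%), from 24.1% at overlap shares under 5% to 57.8% at 50% and over. In bulk samples, fewer cells of a type and less RNA per cell cannot be told apart.

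From LZ to PD, 721 convergent genes rose (26.1%, with 26.6% of all tested genes) and 710 fell (25.7%, with 32.3% of all tested genes). The median log2 fold change was 0.06 for convergent genes and -0.23 for all genes. Both genes rose in 183 pairs, both fell in 168, and they moved in opposite directions in 91. Opposite moves were 12.7% of pairs with an overlap share under 5% and 2.88% of those at 50% and over. The ratio of the plus to the minus gene changed in 608 pairs (45.4%), where 41.1% of all opposite-strand overlapping pairs changed. Rises were 50.4% of the calls on the deposited scale and 64.3% after centring each library on its median, which moved the median of all genes to 0.16. Without LZ replicate 3, 789 convergent genes rose and 509 fell, where 6027 rose and 4503 fell of all 19412 genes tested then. Falls were likewise 501 without LZ replicate 1 and 536 without LZ replicate 2, and fewer genes passed the filter whenever an LZ library was left out. Summed Sertoli cell markers (8 of 13 had an assembled gene, and Sox9, Amh, Gata4, Fshr and Trf had none) ran from 94.9 to 135 RPKM in LZ and from 1.85 to 2.3 in PD, and their part in the falls was not tested.

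Itgb1, the beta-1 subunit of integrin adhesion receptors, and Ccdc7a, a coiled-coil gene, met on chromosome 8 with 777 bp of shared exon (9.31% of the shorter gene). Itgb1 was at 12.8, 10.2 and 7.98 RPKM in LZ and at 0.972, 0.539 and 0.758 in PD. Ccdc7a was at 1.23, 1.23 and 2.86 RPKM in LZ and at 22, 19.5 and 25 in PD. Itgb1 was ahead in reads in all LZ libraries and Ccdc7a in all libraries of the 4 later stages. The log2 fold change was -3.77 ± 0.37 (SE, limma adjusted p = 1.38e-06) for Itgb1 and 3.75 ± 0.40 (limma adjusted p = 2.57e-06) for Ccdc7a. Neither overlapped a further opposite-strand gene, so outside the overlap Itgb1 was at 6.12 RPKM or more in each LZ library and Ccdc7a at 20.8 or more in each PD library. Itgb1 extended 6311 bp past its reference end, and the reference genes did not overlap. The assembled Ccdc7a spanned 2 coding reference genes, so its level is not that of a single gene.

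Igsf8, an immunoglobulin-type membrane protein, and Kcnj9, a potassium channel subunit, shared 388 bp on chromosome 1 (17.2% of Igsf8). Igsf8 fell from 6.95, 6.24 and 7.51 RPKM in LZ to between 0.165 and 0.29 in PD. Kcnj9 was at 1.16, 1.15 and 4.46 RPKM in LZ and at 42.4, 41 and 52.4 in PD, with the highest LZ value in replicate 3, and then at 15 to 23.5 in RS. Kcnj9 also overlapped the unannotated MSTRG.1368 on the opposite strand. The log2 fold changes from LZ to PD were -4.89 ± 0.31 and 4.63 ± 0.44 (limma adjusted p = 3.76e-08 and 1.05e-06). Igsf8 passed the filter through its LZ libraries alone, so its p-value is no separate support for the fall. Ccdc107 and Arhgef39, a guanine nucleotide exchange factor gene, were the other pair named for opposite moves at this step. Ccdc107 fell from 541 ± 131 to 49 ± 11.2 RPKM (mean ± SD, n = 3) and Arhgef39 rose from 1.23 ± 0.54 to 13 ± 4.53. Ccdc107 also overlapped Rmrp, the RNA of RNase MRP, on the opposite strand, and reads there were counted for it as well.

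Pairs that moved together at this step included Inpp5f, a phosphoinositide phosphatase, and Mcmbp, which binds the replicative helicase. They shared 1826 bp (30.5% of the shorter gene) on chromosome 7. Inpp5f was at 5.48, 4.46 and 3.97 RPKM in LZ and at most 0.0655 in PD, and Mcmbp was at 15.2, 11.6 and 11.9 in LZ and at most 0.223 in PD. Both stayed low to the last stage. Mcmbp had at least 7.44 RPKM outside the overlap in LZ, while the reads of Inpp5f never exceeded those of Mcmbp, so no level outside the overlap is shown for Inpp5f. An unannotated pair on chromosome 10, MSTRG.2950 and MSTRG.2951, fell from 4.17 ± 1.42 and 6.95 ± 1.57 RPKM to 0.044 ± 0.0383 and 0.0385 ± 0.0116.

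Joint rises included that of Ldha, lactate dehydrogenase A, with the unannotated MSTRG.22252. Ldha was at 13.1, 12.6 and 86 RPKM in LZ, the highest in replicate 3, and at 613, 580 and 542 in PD. MSTRG.22252 went from 3.04, 1.98 and 17.5 to 108, 93.1 and 108 RPKM, but it also overlapped Ldhc, the testis paralogue, and similar sequences can exchange reads. 1700010K23Rik, a lncRNA, and Cadm2, an adhesion molecule, rose from 1.53 ± 1.16 to 33.4 ± 5.71 and from 0.33 ± 0.255 to 5.82 ± 1.32 RPKM with 110 bp shared. Cadm2 also overlapped 4933411O13Rik.

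From PD to RS fewer convergent genes changed: 379 rose (13.7%, with 30.2% of all tested genes) and 349 fell (12.6%, with 12.6% of all tested genes). Among protein-coding genes only, 11.6% of the convergent ones and 25.7% of the others rose. Both genes rose in 73 pairs, both fell in 71 and 29 moved in opposite directions, none of these 29 with an overlap share of 50% or more. The ratio changed in 336 pairs (25.1%, with 24.4% of all opposite-strand pairs). The balance of rises and falls depended on the scaling: rises were 52.1% of calls as deposited, 33.3% after median centring and 32.1% after quantile normalization. The median log2 fold change of convergent genes was -0.06 as deposited and -0.42 after centring, that of all genes 0.23 and -0.13.

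Rad1, a subunit of the DNA damage checkpoint clamp, and Ttc23l, a tetratricopeptide repeat gene, shared 334 bp on chromosome 15 (22.4% of Rad1). Rad1 was at 8.87, 7.85 and 4.93 RPKM in PD and at 1.07, 0.997 and 0.82 in RS. Ttc23l was at 0.579, 0.606 and 0.803 RPKM in PD and at 9.14, 7.46 and 11.9 in RS. Rad1 was ahead in reads in every LZ and PD library and Ttc23l in every library after that. The log2 fold changes were -2.86 ± 0.46 and 3.81 ± 0.52 (limma adjusted p = 0.000147 and 3.92e-05), and the log2 ratio of Rad1 to Ttc23l changed by -6.67 ± 0.49. Each of these genes also overlapped a further opposite-strand gene, Brix1 for Rad1.

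The other opposite pairs named at this step joined a known gene to an unannotated one. Rnf6, a ubiquitin ligase, fell from 16.9 ± 1.35 to 2.83 ± 0.856 RPKM while MSTRG.20073 rose from 0.328 ± 0.153 to 9.26 ± 0.568, with 251 bp shared (3.67% of MSTRG.20073). MSTRG.20073 also overlapped 1700001J03Rik. In EES, MSTRG.20073 was at 15.9 RPKM in replicate 2 and at 0.714 and 1.32 in the others. Lrrc37a, a leucine-rich repeat gene, rose from 0.948 ± 0.289 to 7.37 ± 2.61 RPKM while MSTRG.4503 fell from 9.65 ± 0.946 to 0.47 ± 0.0676. They shared 344 bp (3.3% of the shorter gene). MSTRG.4503 was a single exon of 30643 bp and also overlapped MSTRG.4502.

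Hist1h1t, the testis linker histone, and Hist1h4c, a core histone gene, overlapped by 1111 bp on chromosome 13, which is 98.8% of Hist1h1t. Hist1h1t was at 1096, 969 and 604 RPKM in PD and at 9.23, 11.1 and 7.22 in RS. Hist1h4c was at 483, 420 and 263 RPKM in PD and at 6.89, 6.25 and 4.5 in RS. Both fell, by 6.57 and 6.02 on the log2 scale, and most of Hist1h1t cannot be told apart from Hist1h4c. No level of its own can be given for Hist1h1t. Outside the overlap, the lower bound for Hist1h4c ranged from 202 to 332 RPKM among LZ libraries. This bound ranged from 26.3 to 58.2 among PD libraries and from 2.61 to 5.23 among RS libraries. Most of the Hist1h4c value in PD may thus be shared reads, so 6.02 may not be the fall of Hist1h4c alone. Histone genes have near-identical copies, which adds uncertainty to both. Gm16278, a lncRNA, and Pigq, an enzyme of GPI anchor synthesis, also fell together, from 20.3 ± 1.39 to 1.56 ± 0.293 and from 12.5 ± 0.551 to 0.753 ± 0.206 RPKM. They shared 1627 bp (34.5% of the shorter gene), and Gm16278 also overlapped Rab40c.

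Joint rises at this step included Pcbd2, a pterin dehydratase gene, with the lncRNA 4930451E10Rik, and Gm5800 with the unannotated MSTRG.7754. Pcbd2 was at 0.0598, 0.0461 and 0.0822 RPKM in PD and at 1.23, 1.58 and 2.07 in RS, after 1.03 to 1.28 in LZ. 4930451E10Rik went from 0.0772, 0.0764 and 0.217 to 3.8, 4.48 and 4.76 RPKM, and it also overlapped Catsper3. Gm5800 rose from 0.376 ± 0.248 to 20.7 ± 1.17 RPKM and held at least 16.8 RPKM outside its overlap in RS.

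From RS to EES, 1605 convergent genes fell (58.2%, with 47.3% of all tested genes) and 327 rose (11.9%, with 23.0% of all tested genes). The median log2 fold change was -1.44 for convergent genes and -1.05 for all genes. Both genes fell in 587 pairs, both rose in 67, and 94 moved in opposite directions. Joint falls made up 31.6% of pairs at overlap shares under 5% and 51.3% at 50% and over. The ratio changed in 599 pairs (44.7%, with 45.2% of all opposite-strand pairs). Rises were 16.9% of calls as deposited and 27.9% after median centring, with medians of -0.83 for convergent and -0.43 for all genes. Without EES replicate 2 there were 1734 falls and 336 rises, where all 21264 genes tested then had 11163 falls and 4847 rises. Summed macrophage markers (4 of 6 had an assembled gene, none at 0, and Cd68 and Csf1r had none) ran from 1.13 to 1.3 RPKM in RS and from 6.04 to 15.9 in EES. Most of the EES sum was 1 gene: the only tested macrophage marker ran from 0.151 to 0.296 RPKM in RS and from 5.48 to 14.7 in EES. The highest macrophage marker in EES was C1qb, at a mean of 10.6 RPKM. Summed Sertoli markers ran from 3.7 to 4.64 in RS and from 5.9 to 16.6 in EES. The part of these cell types in the changes was not tested.

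**Figure D4:**
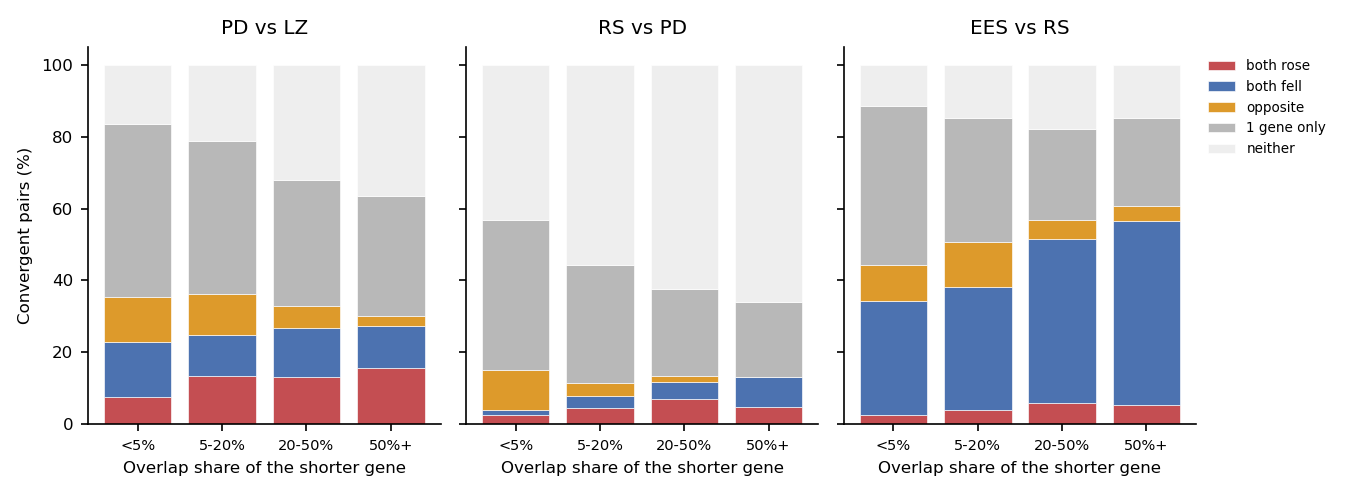
Share of convergent pairs (%) by what the test called for their genes in 3 comparisons of neighbouring stages, split by the share of the shorter gene overlapped (79, 327, 517 and 417 pairs). Opposite calls (orange) take 12.7% of the pairs at the lowest share and 2.88% at the highest from LZ to PD, and joint falls (blue) take 31.6% at the lowest share and 51.3% at the highest from RS to EES.

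Ppt1, the lysosomal enzyme that removes palmitate from proteins, and Cap1, an actin-binding protein, shared 552 bp on chromosome 4 at chr4:122858950-122859501 (16.5% of Ppt1). Ppt1 was at 7.39, 8.82 and 8.96 RPKM in RS, at 86.6, 57.9 and 84.8 in EES and at 82.1 to 88.7 in LES. Cap1 was at 15.5, 19 and 16 RPKM in RS, at 0.657, 1.16 and 0.772 in EES and at 0.946 to 2.29 in LES. The gene ahead in reads changed from Cap1 to Ppt1. The log2 fold changes were 3.17 ± 0.20 and -4.31 ± 0.31 (limma adjusted p = 8.83e-08 and 1.57e-07). Ppt1 overlapped no further opposite-strand gene, while Cap1 also overlapped MSTRG.17476. Ppt1 was at 66.6 RPKM or more outside the overlap in every EES library. Over 15 libraries the correlation of their log2 levels was -0.97.

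Spatc1, which encodes the sperm centrosome protein speriolin, met the unannotated MSTRG.8913 over 320 bp on chromosome 15. Spatc1 was at 1.69, 2.28 and 3.2 RPKM in RS and at 172, 74 and 155 in EES, and MSTRG.8913 at 11.4, 13 and 10.1 and then at 1.01, 1.97 and 1.16. Spatc1 rose by 5.76 ± 0.35 and MSTRG.8913 changed by -3.10 ± 0.54 (limma adjusted p = 7.07e-08 and 0.000166). MSTRG.8913 also overlapped Smpd5. In EES replicate 2 Spatc1 was lowest and MSTRG.8913 highest of the 3 libraries. Fmnl1, a formin, and 1700023F06Rik shared 63 bp; 1700023F06Rik rose from 3.34 ± 0.841 to 74.9 ± 20.2 RPKM. Fmnl1 went from 7.2, 12.7 and 8.15 RPKM to 0.0588, 5.13 and 0.334, the 5.13 in EES replicate 2. Its log2 fold change was -4.19 with all libraries and -2.77 without EES replicate 1. The assembled 1700023F06Rik spanned 2 coding reference genes and also overlapped MSTRG.4497 and MSTRG.4498.

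Snn, a small membrane protein gene, and Txndc11, a thioredoxin-domain protein of the endoplasmic reticulum, overlapped by 56 bp, 1.83% of Snn, and both printed hexamers lay within it. Txndc11 was highest in LZ at 7.84, 6.87 and 7.62 RPKM and stepped down to 2.84, 3.09 and 2.2 in PD, 1.42, 1.46 and 1.08 in RS and at most 0.66 after that. Snn was at 0.0774 to 0.131 RPKM in PD, at 0.69, 0.756 and 1.1 in RS and at 18, 12.2 and 14.7 in EES. From RS to EES Snn rose by 4.13 ± 0.27 and Txndc11 changed by -1.66 ± 0.32 (limma adjusted p = 9.74e-08 and 0.000345). The fall of Txndc11 was -1.04 with median-centred libraries and -0.70, under the fold threshold, on the log2(RPKM + 1) scale. Outside the overlap Txndc11 had at least 6.37 RPKM in LZ. Snn also overlapped Litaf on the opposite strand.

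Scaf8, whose protein binds the tail of RNA polymerase II, and the lncRNA Gm34035 overlapped by 776 bp on chromosome 17 (41.7% of Gm34035), and neither met a further opposite-strand gene. The assembled Scaf8 ran 60036 bp and Gm34035 13550 bp past the reference ends, and the reference exons did not overlap. Scaf8 was at 17.5, 13.6 and 17.2 RPKM in LZ, 4.76, 4.81 and 3.64 in PD and 1.75, 2.17 and 2.03 in RS. Gm34035 stood at 0.732 to 1.01 RPKM in RS and at 24.9, 9.91 and 24.1 in EES, lowest in replicate 2. Its log2 fold change was 4.38 ± 0.32 (limma adjusted p = 1.82e-07), and it had at least 7.47 RPKM outside the overlap in each EES library and 29.2 in each LES library. Tubb6, a beta-tubulin, and Afg3l2, a protease of the inner mitochondrial membrane, shared 310 bp on chromosome 18, and the lead in reads passed from Afg3l2 to Tubb6 between RS and EES. Afg3l2 fell from 6.26 ± 1.92 to 0.797 ± 0.638 RPKM between RS and EES, and Tubb6 was at 2.72, 2.77 and 4.44 RPKM in RS and 8.26, 32.9 and 8.7 in EES. Tubb6 also overlapped MSTRG.12200.

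**Figure D5:**
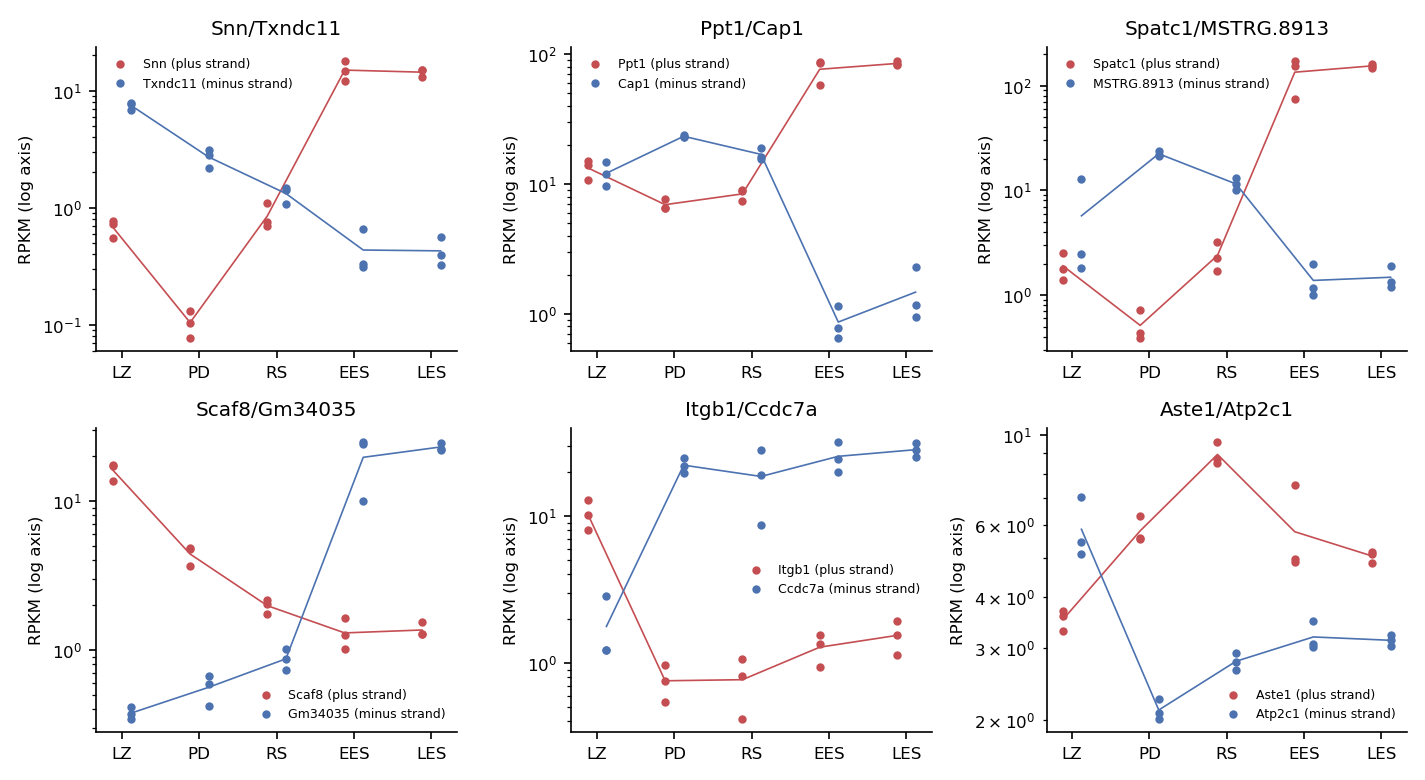
RPKM (log axis) of the plus-strand gene (red) and the minus-strand gene (blue) of 6 convergent pairs in 5 stages, 1 point per library and a line through the stage means (n = 3). Ppt1 stands at 57.9 to 86.6 RPKM in EES, where Cap1 stands at 0.657 to 1.16; in each of the 6 panels the higher gene changes at least once.

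Among pairs that fell together from RS to EES, Clcc1, a chloride channel gene of the endoplasmic reticulum, and Gpsm2, which orients the mitotic spindle, shared 317 bp. Clcc1 went from 8.36 ± 0.224 to 0.347 ± 0.207 RPKM and Gpsm2 from 14.4 ± 1.13 to 0.728 ± 0.647. Gpsm2 was at 1.46 RPKM in EES replicate 2, above 0.224 and 0.501 in the others. Slc2a8, a glucose transporter, went from 33.4 ± 2.95 to 0.718 ± 0.0796 RPKM together with MSTRG.13620, a single exon of 12132 bp that shared 66.3% of the exons of Slc2a8. MSTRG.13620 went from 8.31 ± 0.704 to 0.317 ± 0.0484 RPKM, and outside the overlap its lower bound in RS was 0.0355.

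Among pairs that rose together, Hspa1l, a testis heat shock protein, and the lncRNA Gm10501 shared 2276 bp (62.7% of Hspa1l). Hspa1l was at 11.5, 13.4 and 16.6 RPKM in RS and at 924, 412 and 886 in EES, and Gm10501 at 7.93, 9.27 and 11.5 and then at 645, 287 and 621. Their ratio did not pass the test at any step, and in EES Hspa1l had at least 27.2 RPKM outside the overlap, with no bound for Gm10501. Hspa1l spanned 2 coding reference genes, and Gm10501 also overlapped Lsm2. The lncRNA 1700027A15Rik rose from 42.5, 67.8 and 101 RPKM in RS to 7070, 2824 and 6165 in EES, and its partner MSTRG.527 from 15.1, 21.2 and 27.3 to 2309, 844 and 2090. 1700027A15Rik lay opposite Tnp1, whose level in the same EES libraries was 8419, 3377 and 7341 RPKM, and reads of Tnp1 were counted for it.

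From EES to LES no convergent gene passed the test in either direction (limma, 0 of 2759, with 0.00% of all tested genes), and no pair changed its ratio (with 0.00% of all opposite-strand pairs). At an unadjusted p under 0.05 there were 107 genes and 150 pairs. limma-voom on the recovered reads also called 0. Without LES replicate 1, 7 convergent genes rose and 5 ratios changed, and the ratio calls were 2 without EES replicate 3 and 2 without LES replicate 2. Of all 21374 genes tested without LES replicate 1, 37 rose and 2 fell.

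Reads told which gene of a pair was ahead irrespective of the overlap. Of 1340 pairs, the plus gene held more reads in all 15 libraries in 343, and the minus gene in 351. In 450 pairs (33.6%) the lead changed over between stages, meaning that one gene was ahead in all libraries of one stage and the other in all libraries of another; in head-to-head pairs the share was 25.2%, and the difference was not tested. Changes of lead made up 45.6% of pairs with an overlap share under 5%, 40.4% at 5 to 20%, 35% at 20 to 50% and 24.2% at 50% and over. In the 440 pairs without a further opposite-strand overlap it was 149 (33.9%).

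Between LZ and PD the other gene was ahead in 197 of the 1178 pairs with a clear lead in both stages (16.7%), between PD and RS in 120 of 1232 (9.74%), between RS and EES in 111 of 1104 (10.1%) and between EES and LES in 4 of 1114 (0.359%). From LZ to LES it was 291 of 1138 (25.6%). The single libraries can be set beside these: RS23 had the other gene ahead than RS in 79 of 1279 pairs (6.18%), and PrmES differed from EES in 4.25%, from LES in 5.39% and from RS in 15.7% of pairs.

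The longest overlaps between genes that each reached 4 RPKM in a stage mean were those of 3 pairs. Aste1, a nuclease-like gene, and Atp2c1, the calcium and manganese pump of the Golgi, shared 10241 bp on chromosome 9 (78.3% of Aste1). Atp2c1 was at 7.06, 5.45 and 5.11 RPKM in LZ and at 2.02 to 2.25 in PD, and Aste1 at 3.7, 3.3 and 3.6 and then at 5.55, 5.58 and 6.33. From LZ to PD the log2 ratio of Aste1 to Atp2c1 changed by 2.17 ± 0.14 (limma adjusted p = 1.7e-07), and the lead in reads passed to Aste1. Aste1 also overlapped Nek11 on the opposite strand.

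Mtfr1, a regulator of mitochondrial fission, and Pde7a, a cyclic AMP phosphodiesterase, shared 9511 bp, and the reference genes did not overlap at all. Mtfr1 extended 14328 bp and Pde7a 5585 bp past the reference ends. Mtfr1 rose from 6.83, 7.13 and 7.64 RPKM in RS to 42.2, 27.7 and 38.6 in EES, and Pde7a from 6.45, 6.06 and 6.28 to 20.8, 15.5 and 20.8. Outside the overlap Mtfr1 was at 37 RPKM or more in EES, while no level can be given for Pde7a. Ypel1 and Ppil2, a cyclophilin-type gene, shared 9550 bp in 16 blocks (69.6% of the shorter gene). Both values were highest in PD, at 44.2 ± 4.07 and 59.2 ± 5.27 RPKM, and their ratio passed the test at no step. Outside the overlap the lower bound for Ppil2 in PD was only 3.56 to 4.71 RPKM, with none for Ypel1. Most of both values in PD may thus be shared reads.

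At the highest overlap shares nearly all exon bases of 1 gene were shared. Sh3bgrl3 lay 99.8% within Ubxn11 exons, Prrc2b, as assembled here, 99.7% within the lncRNA Gm13610, and Nr2f6, an orphan nuclear receptor, 99.6% within Ocel1. Ubxn11 rose from 39.9 ± 6.77 RPKM in RS to 86.8 ± 20.9 in EES, where Sh3bgrl3 went from 11.3 ± 1.31 to 5.67 ± 1.39. The log2 fold change of Ubxn11 was 1.10, and it lay under the threshold without RS replicate 1 (0.99), without EES replicate 1 (0.96) and after quantile normalization (0.77); with median-centred libraries it was 1.72. Nr2f6 was at 4.76 ± 0.227 RPKM in LZ, 5.96 ± 1.19 in PD, 1.91 ± 0.259 in RS and 0.264 ± 0.121 in EES. Prrc2b and Gm13610 followed each other with a correlation of 1.00 over 15 libraries. Gm13610 also overlapped Pomt1.

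Pairs with an unannotated gene were named by the highest stage mean of that gene, so their high values follow from the choice. Of the 324 tested convergent genes without a reference, 20.1% rose and 46.6% fell from RS to EES, with 23.0% and 47.3% of all tested genes. Reads in the overlap were counted for both genes of a pair. MSTRG.19435 was at 382, 244 and 323 RPKM in EES opposite Rplp0, a protein of the ribosomal stalk at 648, 413 and 565, and it never led in reads. Of the exons of MSTRG.19435, 38.6% were shared, and no level outside the overlap is shown for it. Rplp0 also overlapped MSTRG.19433. MSTRG.16112, opposite the ubiquitin-like gene Ubl4b, was at 243, 120 and 235 RPKM in EES against 214, 102 and 204, and 74.8% of its exon length was shared. MSTRG.16112 never led in reads either, so no level outside the overlap is shown for it. MSTRG.14467 lay opposite the ubiquitin ligase gene Ubox5 on chromosome 2, and here the lead changed over. MSTRG.14467 was at 6.07, 6.76 and 9.45 RPKM in RS and at 142, 110 and 133 in EES. Ubox5, which as assembled spanned 2 coding reference genes, was at 3.59 to 3.64 RPKM in RS and at 5.41 to 6 in EES. Neither met a further opposite-strand gene, and MSTRG.14467 was at 169 RPKM or more outside the overlap in each EES library. Ubox5 led in LZ, PD and RS, at 6.28 RPKM or more outside the overlap in PD.

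Pairs that met by 30 bp or less are given next. Llgl1, at 6.38, 5.31 and 5.81 RPKM in LZ, fell to between 0.309 and 0.549 in PD, with a change of -3.74 ± 0.38 on the log2 scale (limma adjusted p = 1.78e-06). Flii was at 11.6, 9.24 and 12.2 RPKM and then at 4.58, 4.82 and 4.14 (-1.28 ± 0.61, limma adjusted p = 0.08). The change of Flii passed the test without EES replicate 1 or EES replicate 2 (limma adjusted p = 0.0188 and 0.00936), which enter the shared spread, and with limma-voom (adjusted p = 0.0197). 1700060C20Rik rose from 0.247 ± 0.274 RPKM in LZ to 7.03 ± 1.1 in PD, and D630003M21Rik rose from 0.291 ± 0.0603 in RS to 4.15 ± 1.85 in EES, with 21 bp shared. Hmga1, an AT-hook chromatin protein, and AI413582 shared 10 bp. From LZ to PD Hmga1 had a log2 fold change of -0.24 ± 0.35 (limma adjusted p = 0.577), and AI413582 rose by 1.90 ± 0.31 (limma adjusted p = 0.000122). The sign for Hmga1 turned without LZ replicate 3 (0.08) and with median-centred libraries (0.16). Hmga1 also overlapped Gm49774, and AI413582 C130040N14Rik. MSTRG.23569 and MSTRG.23570, without a reference, shared 25 bp and stood at 4.17 ± 0.632 and 6.78 ± 1.01 RPKM in LZ, with 0 reads in all EES libraries. Ankrd36 and Urgcp shared 5 bp; Ankrd36 rose from 7.44 ± 5.97 to 54.4 ± 2.35 RPKM and Urgcp, which spanned 2 coding reference genes and also overlapped Ube2d-ps, was at 4.37 ± 0.301 and 4.87 ± 0.253.

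Genes that cut and polyadenylate transcripts, and genes that bind or process double-stranded RNA, were counted with the same test. Of 24 tested genes of 3' end processing, 5 rose and 7 fell from LZ to PD, 2 rose and 1 fell from PD to RS, and 1 rose and 17 fell from RS to EES. For 20 genes of double-stranded RNA and small RNA processing the counts were 2 and 9, 1 and 7, and 0 and 12. Of all tested genes 26.6% rose and 32.3% fell at the first of these steps, 30.2% and 12.6% at the next, and 23.0% and 47.3% at the last. Members of convergent pairs made up 5 of the 24 (20.8%) and 8 of the 20 (40%), where 12.8% of all tested genes were members. Among tested protein-coding genes the share was higher, with 2199 members and 9765 others. Whether the lists differ from these was not tested.

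The 5 members among 3' end processing genes were Cpsf1, Cpsf7, Nudt21, Pcf11 and Wdr33. Cpsf1, a subunit of the factor that recognises the hexamer, fell from 11.1 ± 1.88 RPKM in RS to 2.13 ± 1.8 in EES, with Adck5 as its partner (16.3% of the exons of Cpsf1 shared). Wdr33, another subunit of that factor, fell from 13.2 ± 2.07 to 0.689 ± 0.508, and Nudt21, which takes part in the choice of the site, from 3.56 ± 0.565 to 0.446 ± 0.612. Wdr33 shared 15.5% of its exons with its partner and Nudt21 2.77%. Pcf11, which acts in transcription termination, was at 26.2 ± 4.78 and 15.6 ± 9.66 RPKM (log2 fold change -0.91 ± 0.34, limma adjusted p = 0.0272) and missed the fold threshold; its change was -1.38 without EES replicate 2, past the threshold, and -0.50 without EES replicate 1. Of its exons, 41.6% were shared. Cpsf7 fell at an earlier step, from 12.7 ± 2.01 in LZ to 2.8 ± 0.202 in PD, and again from RS to EES, with 51.1% of its exons shared with Tmem216.

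Among the 8 members that handle double-stranded RNA, Dicer1, the enzyme that makes small RNAs from it, was at 14.7 ± 1.89 RPKM in LZ and at 0.0819 ± 0.0068 in PD, a fall with a log2 fold change of -7.32 ± 0.33 (limma adjusted p = 5.03e-09). Adar, which edits adenosines in double-stranded RNA, fell from 3.3 ± 0.324 to 0.159 ± 0.0613 over the same step. Dicer1 and Adar passed the filter through their LZ libraries alone, so the direction of these changes was set by how they passed. Dhx9, an RNA helicase, rose from 4.92 ± 1.51 to 34.5 ± 0.325 RPKM, but 13.1% of its exons were shared with Shcbp1l, which stood at 221 ± 3.95 in PD. Ago2 fell from PD to RS, from 3.39 ± 0.271 to 0.591 ± 0.0715. Stau1 and Strbp, which bind double-stranded RNA, fell from LZ to PD, by 1.05 and 1.08 on the log2 scale. Both lay under the fold threshold with median-centred libraries (-0.66 and -0.68), and Stau1 also without LZ replicate 1 or PD replicate 3 (-0.90 without the latter). Dicer1 shared 4.7% of its exons with its partner, Ago2 0.54%, Stau1 16.2% and Strbp 7.43%. Eif2ak2, the kinase activated by double-stranded RNA, was called at none of the steps.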

How the data were processed

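RNA levels in sorted mouse germ cells were taken from the authors' table of de novo genes. Its deposited values are log2 values, log2 of 100 times RPKM plus 1, so the pseudocount is 0.01 RPKM; fold changes are on that scale and understate those of low genes. Multiplied by exon length, 100% of values fell on whole reads within 0.01 read, which gave read numbers and library totals. The deposited annotation holds positions (unit other) and was assembled with StringTie 1.3.4d, per the file headers. Trim Galore, STAR, GRCm38 and mm10 are named per the submitters' processing notes; not given in the sources used here were the counting tool and its strand setting. Of the inner exon edges of de novo genes with a coding reference gene, 92.3% matched GENCODE M21 (GRCm38), which gave symbols and sequences.

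Genes at 1 RPKM or more in at least 3 of 15 libraries were fitted with limma 3.58.1 (R 4.3.3, eBayes with trend) over 5 stages; RS23 and PrmES stayed out. Ratios were fitted likewise, but with eBayes without trend, over 5457 opposite-strand pairs. The gene fit was tested on simulated data for the step from LZ to PD. Fold changes are later minus earlier stage.

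Pairs were named by rule, each gene at 4 RPKM or more in a stage mean. Per step, these were up to 3 opposite pairs whose libraries did not overlap between the stages. Up to 2 joint pairs in each direction were named without that condition. Named too were 4 pairs whose higher gene changes, the 3 longest overlaps and the 3 highest shares. The rule also took 4 pairs with an unannotated gene and 5 overlaps of 30 bp or less. Members and lists were chosen with earlier results of these data known. Adar with Chrnb2 and B230354K17Rik with Spats1 are named as the extremes of overlap length. Members of the 2 gene lists and the single-library values in the closing section also fall outside the rule and were named after their values were seen; 1 list member is not reported here. Alternatives were other pseudocounts, filters, scalings, overlap minimums, limma-voom, a replicate block and leaving out libraries.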

Additional observations from a re-analysis of the deposited data

How the results depend on the processing

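For 82 fold changes and ratio changes of named genes and pairs, 1899 values could be computed under alternatives, and 1876 kept their direction and side of the threshold. The other 23 belonged to 7 genes: Flii, Hmga1, Pcf11, Stau1, Strbp, Txndc11 and Ubxn11. Hmga1, not called, ran from -0.46 to 0.08 when 1 library was left out, with 0.08 without LZ replicate 3, alone or with EES replicate 2, and was at 0.16 with median-centred libraries. A minimum of 5 RPKM left 75 of the 82 values, and leaving out an LZ library 73, since fewer genes passed the filter; ratios were not recomputed under the other scalings. On the log2(RPKM + 1) scale 24 of the 82 moved by over 1.5 times, such as Pcbd2 from 4.49 to 1.29, Inpp5f from -6.26 to -2.41 and MSTRG.2950 from -6.69 to -2.27, so fold changes of low genes depend on the pseudocount. After quantile normalization Pcbd2 was at 2.86, and without EES replicate 1 Fmnl1 at -2.77. Counts moved by over 1.5 times in these settings. With log2(RPKM + 1), 232 convergent genes rose and 202 fell from PD to RS, where 3329 rose and 1499 fell of all 21515 tested genes. With a minimum of 5 RPKM, which tests fewer genes, 384 fell and 297 ratios changed from LZ to PD, 204 rose, 228 fell and 148 ratios changed from PD to RS, and 305 ratios changed from RS to EES. Of all 10778 genes tested then, 3176 fell from LZ to PD, and 2644 rose and 1362 fell from PD to RS. From PD to RS, 639 convergent genes fell with median-centred libraries and 611 after quantile normalization. Falls of all 21515 tested genes moved likewise, from 2707 as deposited to 4483 and 4982. Quantile normalization also gave 1 rise of a convergent gene from EES to LES, with 9 rises over all tested genes. The cause was not tested. Leaving out 1 library at a time gave 0 to 7 rises of convergent genes and 0 to 5 changed ratios from EES to LES, and without LZ replicate 3 and EES replicate 2 together 1 ratio changed. Over all tested genes, leaving out 1 library gave 0 to 37 rises at this step. Overlaps of at least 500 bp left 939 pairs, and pairs with an overlap share under 10% had a median correlation of 0.44. Replicate numbers did not pair the libraries (correlation of deviations -0.24 to 0.17 for equal numbers, median -0.02), and the replicate block gave 715 rises and 703 falls from LZ to PD, close to the 721 and 710 without it. The fits with limma-voom on recovered reads called 748 and 727, where 5853 rose and 6974 fell of all tested genes. Restricting the correlation to pairs without a further opposite-strand overlap was chosen after seeing the data. Depth limits short unannotated loci such as MSTRG.2950, which had 0 reads in single libraries.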

Other observations

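In the single libraries, which enter no comparison, the named pairs kept the order seen in the nearest stage in some cases and not in others. PrmES had Ppt1 at 37.1 RPKM and Cap1 at 1.74, Spatc1 at 69.3 and MSTRG.8913 at 0.924, Snn at 11.9 and Txndc11 at 0.523, and Gm34035 at 12.3 and Scaf8 at 1.5. RS23 had Ttc23l at 15.8 RPKM and Rad1 at 1.1. Rnf6 was at 7.36 RPKM and MSTRG.20073 at 2.15 in RS23, the reverse of the order in the 3 RS libraries. Ubox5 was at 1.22 RPKM in PrmES, where MSTRG.14467 was at 107.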
